A study of Mus musculus with 43 samples.

Results

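The comparison concerned mouse intestinal organoids treated with the cytokine TGFB1 for 24 h against 15 h, measured in single cells. Organoids are cultures of intestinal epithelium grown in a matrix gel. All were primary cultures of wild-type C57BL/6 origin that received 4 Gy of ionizing radiation (IR) on day 4 and were collected on day 8. The library called 15 h received 1 ng/mL TGFB1 for the last 15 h before collection, and the library called 24 h received it for the last 24 h. A library given vehicle for 24 h (called 0 h) and a library given 1 ng/mL TGFB1 for 6 h are set beside them as levels only. Cells were dissociated with TrypLE and captured with the PIPseq T2 kit, in which a unique molecular identifier (UMI) marks each captured RNA molecule. The 2 libraries are among 7 single-cell libraries and 43 samples of the series.

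The cells were those with at least 500 UMIs and at most 20% of UMIs from mitochondrial genes. This kept 2890 of 2915 barcodes at 15 h and 2218 of 2239 at 24 h, which is 5108 of the 12323 barcodes kept in the 4 organoid libraries. The 15 h and 24 h libraries shared 1 barcode, and no other pair of the 4 shared any. Each time had 1 library, so no test between times was possible, and every interval below is an exact 95% interval that covers counting error only. Kept barcodes held about 26302400 UMIs at 15 h and 30624800 at 24 h, with medians of 7805 and 10441 UMIs per barcode. The level of a gene is its summed UMIs scaled to the total of the library (CPM). Such a sum cannot tell more cells of a type from more RNA per cell. The cultures were epithelial by their markers: none of the listed immune, mesenchymal or endothelial genes reached a mean of 10 CPM, their summed levels were 5.72, 4.71 and 2.05 CPM at 24 h and 5.59, 2.41 and 1.11 CPM at 15 h, and the 5 erythroid genes, Hba-a1 and Alas2 among them, were listed at 0. The immune markers at 0 at both times were Adgre1, Nkg7 and Tyrobp, the mesenchymal ones Col3a1 and Lum, and the endothelial ones Kdr and Plvap.

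TGFB1 signals through receptor kinases that phosphorylate SMAD2 and SMAD3, which enter the nucleus and act on target genes, among them the inhibitor Smad7 that feeds back on the receptor. In the intestinal epithelium the pathway is known for restraining proliferation, and it is active during repair after injury. Injured epithelium can take up a regenerative, fetal-like state marked by Clu, Anxa1 and Ly6a.

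One set of barcodes set the 24 h library apart and touches several results. These barcodes were rich in 7SK, a nuclear noncoding RNA that binds the elongation factor P-TEFb. 7SK made up at least 0.5% of the UMIs in 105 of 2890 barcodes at 15 h (3.63%, exact binomial interval 2.98 to 4.38%) and in 443 of 2218 at 24 h (19.97%, interval 18.3 to 21.7%). The share was 2.08% at 0 h and 1.00% at 6 h. At 24 h the 7SK-rich barcodes held a median of 5630 UMIs against 12957 in the other barcodes, a median mitochondrial share of 7.59% against 4.32%, and 4002 CPM of the nuclear RNA Malat1 against 1434 CPM. The level of 7SK was 760 CPM at 15 h and 3869 CPM at 24 h, a ratio of 5.09, and without the 7SK-rich barcodes it was 333 and 458 CPM, a ratio of 1.38. Counts of called genes and the list counts that differ are therefore given without these barcodes as well, by a limit that was chosen after the data were seen.

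**Figure D1:**
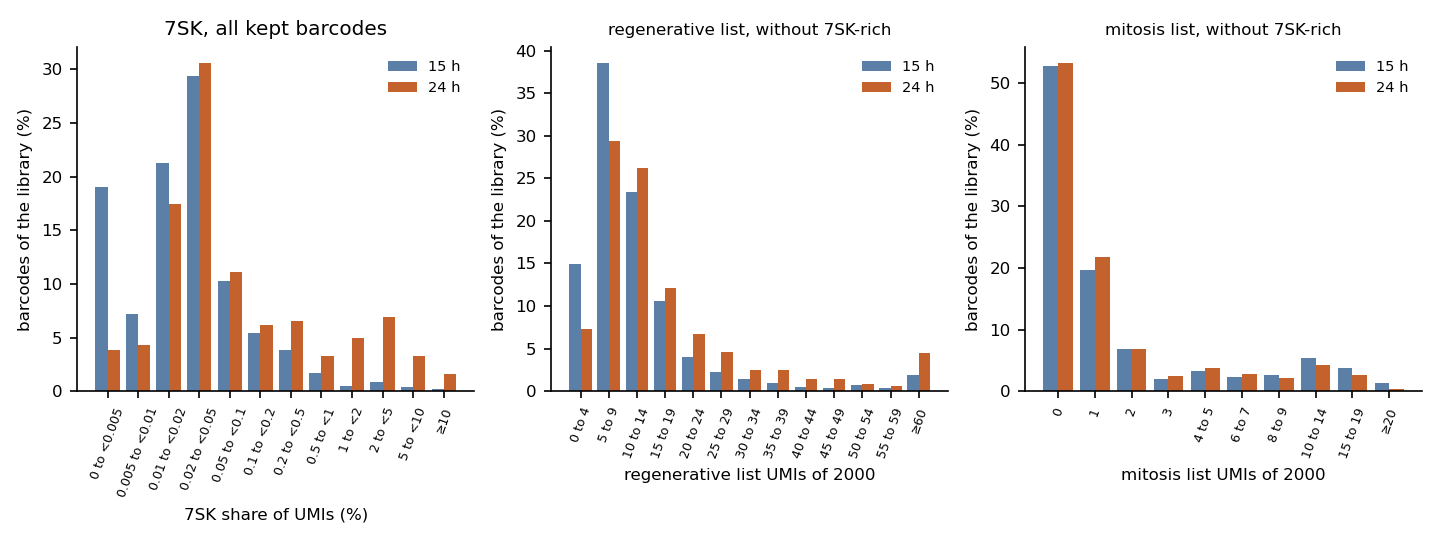
Share of barcodes (%) by the percentage of their UMIs that was 7SK (left, all kept barcodes), and by the UMIs of the regenerative list (centre) and the mitosis list (right) after thinning each barcode to 2000 UMIs and leaving out the 7SK-rich barcodes, at 15 h (blue) and 24 h (orange). The 24 h library has more barcodes at 0.5% 7SK and above (443 against 105), its regenerative counts sit further to the right, and most barcodes of both libraries hold 0 or 1 mitosis UMI.

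A gene is called higher or lower when the ratio of 24 h to 15 h was at least 2 in that direction and the counting interval lay beyond 1. Of 8340 genes with a mean of at least 10 CPM, 66 were higher at 24 h (0.791%) and 20 were lower (0.24%). Without the 7SK-rich barcodes 44 of 8347 genes were higher (0.527%) and 23 were lower (0.276%), of which 40 and 20 were also called in all barcodes. The 66 higher genes comprised 11 small noncoding RNAs, 9 mitochondrial transfer RNAs, 9 identifiers without a symbol and 37 other genes. Without the 7SK-rich barcodes those numbers were 2, 4, 1 and 37. Rpph1, the RNA of ribonuclease P, showed this most plainly: its level was 38.0 CPM at 15 h and 129 CPM at 24 h, but 26.5 and 28.3 CPM without the 7SK-rich barcodes. The small nucleolar RNA Snord118 had a ratio of 2.36 in all barcodes and 1.62 without them, and the vault RNA Vaultrc5 had 2.29 and 1.13. The mitochondrial genome list summed to 50395 CPM at 15 h and 50038 CPM at 24 h.

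**Figure D2:**
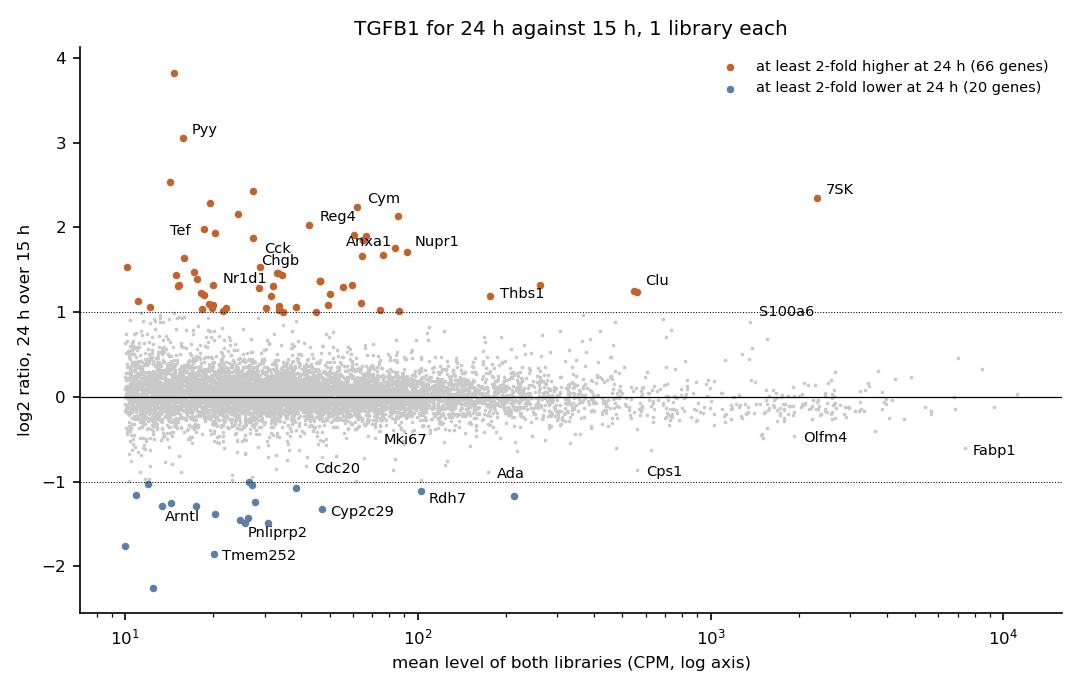
Log2 ratio of 24 h over 15 h (vertical axis) against the mean level of both libraries in CPM (horizontal log axis) for the 8340 genes tested, 1 library per time. Orange points are the 66 genes at least 2-fold higher and blue points the 20 at least 2-fold lower, the dotted lines mark a 2-fold ratio, and Cym, Clu, Nupr1 and Anxa1 stand above most genes of their level.

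Genes of the regenerative state were higher at 24 h than at 15 h in many members. Of 23 measured members of the regenerative and fetal-like list, 7 passed the 2-fold limit upward, 14 passed a 1.5-fold limit upward and none passed either limit downward. Over all genes the 2-fold limit was passed upward by 0.791%. The 1.5-fold limit was passed upward by 2.21% of all genes and downward by 0.851%. Without the 7SK-rich barcodes the list again had 7 and 14, and over all genes the 1.5-fold shares were 2.17% and 0.803%. The median log2 ratio of the list was 0.67 against 0.02 for all genes tested, and without the 7SK-rich barcodes it was 0.72 against 0.04. The list's summed level was 3105 CPM at 0 h, 4012 at 6 h, 6849 at 15 h and 9677 at 24 h.

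Clu, a secreted chaperone that marks revival stem cells, was at 13.3 CPM at 0 h, 67.8 at 6 h, 325 at 15 h and 773 at 24 h. The 24 h level was 2.38 times the 15 h level (interval 2.32 to 2.44), and 2.55 times without the 7SK-rich barcodes. Anxa1, a calcium-dependent phospholipid-binding protein, was at 3.25, 4.01, 31.1 and 98.2 CPM at the same times, so its 24 h to 15 h ratio was 3.15 (2.92 to 3.41). Both were highest in the 24 h library.

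The interleukin-1 receptor antagonist Il1rn was at 8.35, 6.65, 32.0 and 78.8 CPM at 0, 6, 15 and 24 h, a ratio of 2.46 between the last times. Anxa5, Anxa3 and Anxa8 had 24 h to 15 h ratios of 2.15, 2.04 and 2.07, and of the 10 annexins measured 4 were called higher (0.791% of all genes) and 9 lay above 1 (56% of all genes), with or without the 7SK-rich barcodes, the exception being Anxa13 at a log2 ratio of -0.04. Plaur, the urokinase receptor, was at 12.4 and 26.5 CPM at 15 and 24 h. S100a6 and S100a11, small calcium-binding proteins, fell short of the 2-fold limit at log2 ratios of 0.89 each, from 959 to 1773 CPM and from 331 to 612 CPM. Ly6a stayed under the 10 CPM minimum, at 2.62 and 7.15 CPM, a ratio of 2.73 (2.07 to 3.63). Within clusters Ly6a lay above 1 in 2 of 8 and below 1 in 5, and its interval lay beyond 1 in none. Members without this pattern were Msln at a log2 ratio of -0.37 and the keratin Krt20 at -0.04.

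Regenerative UMIs per barcode were higher over the whole range. After thinning each barcode to 2000 UMIs, the median barcode held 9 UMIs of the regenerative list at 15 h and 11 at 24 h, and the upper quartile began at 14 and 18. Clu had a thinned UMI in 25.1% of barcodes at 15 h (exact interval 23.5 to 26.7%) and 42.2% at 24 h (40.2 to 44.3%), and in 46.1% and 70.5% unthinned. In cluster 0, led by the absorptive genes Slc5a4b, Reg3a and Cyp3a11, the thinned shares were 5.99% and 9.68% at medians of 7595 and 13733 UMIs, and the unthinned shares there were 20.1% and 54.1%. Il1rn had a thinned UMI in 3.01% and 7.62% of barcodes (9.13% and 21.2% unthinned) against 0.125% and 1.79% in cluster 0.

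**Figure D3:**
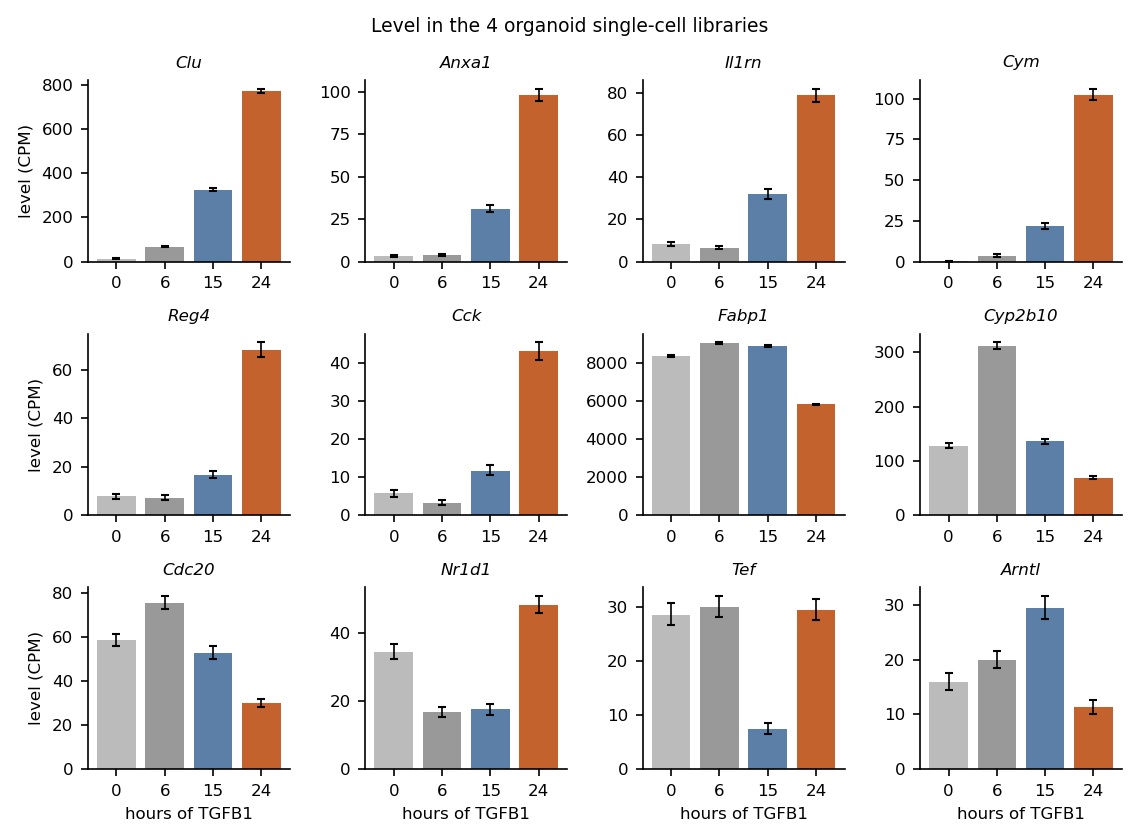
Level (CPM of summed UMIs, vertical axes from 0) of 12 genes in the libraries given TGFB1 for 0, 6, 15 and 24 h, 1 library per bar, with exact 95% counting intervals as error bars. Clu, Anxa1, Il1rn, Cym, Reg4 and Cck were highest at 24 h, Fabp1, Cyp2b10 and Cdc20 were lowest there, and against 15 h Nr1d1 and Tef were higher and Arntl lower.

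Matrix and cytoskeletal genes that TGFB1 is known to induce were higher together by smaller ratios. All 15 measured members of the matrix and protease list lay above a ratio of 1, where 56% of all genes did (59.9% without the 7SK-rich barcodes). Of these 3 were called higher (0.791% of all genes), and the median log2 ratio was 0.42 (0.50 without the 7SK-rich barcodes). Thbs1, thrombospondin 1, which can activate latent TGFB, was at 28.6, 39.5, 107 and 245 CPM at 0, 6, 15 and 24 h, a 24 h to 15 h ratio of 2.29 (2.19 to 2.39). The actin crosslinker Flna was at 31.6 and 66.8 CPM at 15 and 24 h. The laminin chain Lama3 was at 0.0731, 4.59, 15.8 and 26.1 CPM over the 4 times. Of the 8 measured laminin and basement membrane genes 5 were at least 1.5-fold higher (2.21% of all genes), Lama3, Lamc1, Lama5 and Agrn among them. Without the 7SK-rich barcodes 4 of the 8 were (2.17% of all genes). Within clusters the summed laminin list lay above 1 in 4 of 8 and below 1 in 4, and so did Lama3. By its interval Lama3 lay above 1 in none of the 8 and below 1 in 1. Of 15 measured YAP targets only Clu was called higher (0.791% of all genes), with or without the 7SK-rich barcodes. Ccn2, F3 and Ajuba were at least 1.5-fold higher, as 2.21% of all genes were, at log2 ratios of 0.79, 0.67 and 0.70.

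The core of the pathway differed little between the times. None of 11 measured negative feedback genes and none of 15 measured ligands, receptors and SMADs was 1.5-fold higher or lower, and their median log2 ratios were 0.09 and 0.02. Without the 7SK-rich barcodes 1 gene of each list passed the 1.5-fold limit upward, Pmepa1 and Itgb6, as 2.17% of all genes did. The medians were then 0.14 and 0.07. Smad7 was at 14.7, 30.2, 37.6 and 40.5 CPM at 0, 6, 15 and 24 h, and the interval of its 24 h to 15 h ratio, 0.989 to 1.17, included 1. Pmepa1, which binds receptor SMADs, had the largest ratio of the feedback list, from 231 to 334 CPM. Itgb6 and Itgav, whose integrin activates latent TGFB, were at log2 ratios of 0.57 and 0.53.

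Cym, Reg4 and Cck, genes of digestive enzymes and gut secretory cells, had the 3 largest ratios among genes of at least 20 CPM with at most 20% fractional UMIs. Cym, chymosin, a milk-clotting protease, was at 0.110 CPM at 0 h, 3.76 at 6 h, 21.7 at 15 h and 102 at 24 h, a ratio of 4.71 (4.31 to 5.16) between the last times and 4.99 without the 7SK-rich barcodes. It had a thinned UMI in 3.29% of barcodes at 15 h (2.67 to 4.00%) and 9.74% at 24 h (8.54 to 11.0%), against 1.496% and 2.51% in cluster 0, and unthinned in 10.9% and 26.0% against 5.36% and 18.6%. Ctrb1, chymotrypsinogen B, was at 79.7, 165, 539 and 931 CPM. In the same list Pnliprp2, a pancreatic lipase-related protein, was lower, from 36.1 to 13.2 CPM, and Gkn3, a gastrokine, was at 81.6 and 49.7 CPM.

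Of the 29 enteroendocrine genes 6 passed the minimum of 10 CPM, and 5 of these were called higher, with or without the 7SK-rich barcodes. A gene that passes mainly through its 24 h level has to differ, so this count describes only those 6. Reg4, a lectin of secretory cells, was at 7.83, 7.28, 16.8 and 68.4 CPM at 0, 6, 15 and 24 h, a ratio of 4.08 (3.68 to 4.53). The hormone Cck was at 5.81, 3.30, 11.8 and 43.1 CPM, a ratio of 3.65 that became 3.20 without the 7SK-rich barcodes. The granule proteins Chgb and Chga were at 17.7 and 48.8 CPM and at 8.74 and 21.9 CPM at 15 and 24 h, and the hormone Pyy was at 3.38 and 28.2 CPM.

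Reg4 and Chgb differed more in UMIs per positive barcode than in the share of barcodes, and Cck in both. In thinned data Reg4 was detected in 3.25% of barcodes at 15 h and 4.55% at 24 h, with overlapping intervals of 2.64 to 3.97% and 3.72 to 5.51%, while the mean per positive barcode was 1.48 and 7.43 UMIs. Chgb was detected in 3.18% and 4.82%, with 1.75 and 5.07 UMIs per positive barcode. Cck was detected in 1.45% and 4.28%, with 2.95 and 4.89 UMIs per positive barcode. Thinned shares in cluster 8, led by Anxa1 and Il1rn, were 0.763% and 2.02% for Reg4, 1.53% and 2.43% for Chgb and 0.763% and 2.43% for Cck, at medians of 10594 and 18157 UMIs. Unthinned 24 h shares were 17.5% for Reg4 and 18.5% for Chgb over all barcodes, at a median of 10441 UMIs. In the deeper cluster 8 they were 18.2% and 19.4%. Depth differs between these sets, so their unthinned shares cannot tell which holds more positive barcodes. In cluster 9, which Tff3, Afp, Reg4 and Chgb themselves lead (68 and 79 barcodes), Reg4 was at 215 and 3178 CPM, Chgb at 305 and 2071 CPM and Cck at 333 and 1684 CPM.

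Of 13 measured Paneth cell genes 12 lay above 1 (56% of all genes did) and 3 were called higher (0.791% of all genes), with or without the 7SK-rich barcodes, namely Reg4, Nupr1 and Mmp7. Nupr1, a stress-induced chromatin protein, was at 39.8, 7.62, 43.0 and 140 CPM over the 4 times, and Mmp7, a metalloprotease that processes defensins, was at 10.8 and 25.4 CPM at 15 and 24 h. The lysozyme gene Lyz1 was at 132 and 207 CPM, and the list's summed level was 4154 and 4349 CPM. The goblet mucin Muc2 was at 1.94 and 3.59 CPM, under the minimum.

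Crypt stem cell genes were mixed. Of 22 measured members, none was called, 15 lay above 1 (56% of all genes did) and 7 below. Without the 7SK-rich barcodes 16 lay above (59.9% of all genes did) and 6 below. The list's summed level was 3899 CPM at 15 h and 3417 CPM at 24 h. Within clusters this sum lay above 1 in 3 of 8 and below 1 in 5. The Wnt-dependent stem cell marker Lgr5 was at 30.5 and 37.1 CPM at 15 and 24 h (a ratio interval of 1.11 to 1.33, with 37.9% of its UMIs at 24 h in fractional entries). Olfm4, a secreted stem cell marker, was at 2241 and 1626 CPM, and the water channel Aqp4 at 35.7, 20.3, 13.7 and 6.89 CPM over the 4 times. The receptors Tnfrsf19 and Cd44 were at least 1.5-fold higher, as 2.21% of all genes were, at log2 ratios of 0.74 and 0.67.

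Genes of DNA replication and of mitosis stood on opposite sides. All 34 measured mitosis genes lay below a ratio of 1, where 44% of all genes did (40.1% without the 7SK-rich barcodes), with a median log2 ratio of -0.41. None was 2-fold lower and 5 were at least 1.5-fold lower (0.851% of all genes). Without the 7SK-rich barcodes 33 of 34 lay below 1, at a median of -0.33. Cdc20, an activator of the anaphase-promoting complex, was at 58.7, 75.8, 53.1 and 30.1 CPM at 0, 6, 15 and 24 h, and the proliferation marker Mki67 at 125, 144, 83.6 and 59.8 CPM. Ccnb2, Cdca3, Cenpa and Kif2c were the other 4.

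By contrast, 28 of 30 measured replication genes lay above 1, where 56% of all genes did. Without the 7SK-rich barcodes 30 of 31 did, against 59.9% of all genes. The list's median log2 ratio was 0.31 in all barcodes. The methylation maintenance factor Uhrf1 was the 1 member at least 1.5-fold higher, as 2.21% of all genes were. Uhrf1 was at 56.4, 50.0, 24.3 and 37.6 CPM, and the helicase subunit Mcm6 at 78.3, 77.9, 51.6 and 71.3 CPM. Both lists were lower at 15 h than at 0 h when summed: the replication list gave 1665, 1691, 1040 and 1256 CPM and the mitosis list 1862, 2187, 1420 and 1061 CPM at 0, 6, 15 and 24 h. Cdc20 had a thinned UMI in 6.47% of barcodes at 15 h (5.601 to 7.43%) and 3.47% at 24 h (2.75 to 4.32%), against 0.623% and 0.358% in cluster 0, and unthinned in 17.4% and 13.2%.

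Cyp2c29, Rdh7 and Ces1d were lower at 24 h, and the antioxidant and xenobiotic list leaned the same way. Of 30 measured antioxidant and xenobiotic genes 2 were called lower (Ces1d and Ugt1a1; 0.24% of all genes), 4 were at least 1.5-fold lower (0.851% of all genes) and 21 lay below 1 (44% of all genes), at a median log2 ratio of -0.25 (-0.29 without the 7SK-rich barcodes, where 3 were called lower). The glutathione transferase Gsta2 went the other way, at 26.9 and 49.9 CPM, with 97.1% of its UMIs at 24 h in fractional entries. Cyp2c29, which is outside that list, a cytochrome P450 of drug and fatty acid metabolism, was at 77.5, 110, 67.2 and 26.8 CPM at 0, 6, 15 and 24 h, so 2.51-fold lower at 24 h than at 15 h. Cyp2b10, a target of the nuclear receptor CAR, was at 128, 312, 136 and 68.8 CPM. It was just outside the 2-fold limit in all barcodes, 1.97-fold lower, and 2.14-fold lower without the 7SK-rich barcodes. The carboxylesterases Ces1d and Ces1f were at 15.4 and 4.57 CPM and at 82.0 and 41.3 CPM, and the retinol dehydrogenase Rdh7 was at 140 and 64.8 CPM. The retinaldehyde dehydrogenase Aldh1a3 was called higher, at 5.23 and 15.1 CPM, with 88.8% of its UMIs at 24 h in fractional entries. Ces1d passed the minimum of 10 CPM only through its 15 h level, and Aldh1a3 only through its 24 h level. Such genes have to differ in that direction, so their calls describe only these genes.

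The Ugt1a locus encodes glucuronosyltransferases that share their last exons, so reads in those exons cannot be assigned to one of them. Of 9 measured Ugt1a genes, 5 were called lower, but up to 89.1% of their UMIs at 24 h stood in fractional entries, and their separate levels are uncertain. Ugt1a1 was at 45.3 and 16.2 CPM while Ugt1a7c was at 157 and 195 CPM, and the summed locus was at 698 and 589 CPM.

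Of 35 measured enterocyte genes 21 lay below 1, where 44% of all genes did, and without the 7SK-rich barcodes 27 lay below, where 40.1% of all genes did. Their median log2 ratio was -0.06 with those barcodes and -0.20 without. Within clusters the summed enterocyte list lay below 1 in 5 of 8 and above 1 in 3. Fabp1, a fatty acid-binding protein, was at 8377, 9067, 8917 and 5856 CPM over the 4 times. Cps1, the first enzyme of the urea cycle, was at 636, 808, 726 and 399 CPM. Ada, adenosine deaminase of the villus tip, was at 25.7, 58.0, 226 and 122 CPM, so it was highest in the 15 h library. Ada was 1.85-fold lower at 24 h in all barcodes and 2.28-fold lower without the 7SK-rich ones. Ccl28, an epithelial chemokine, was at 30.8 and 15.7 CPM. Among genes chosen for the smallest ratios, Tmem252 had the lowest, at 31.4 and 8.74 CPM.

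**Figure D4:**
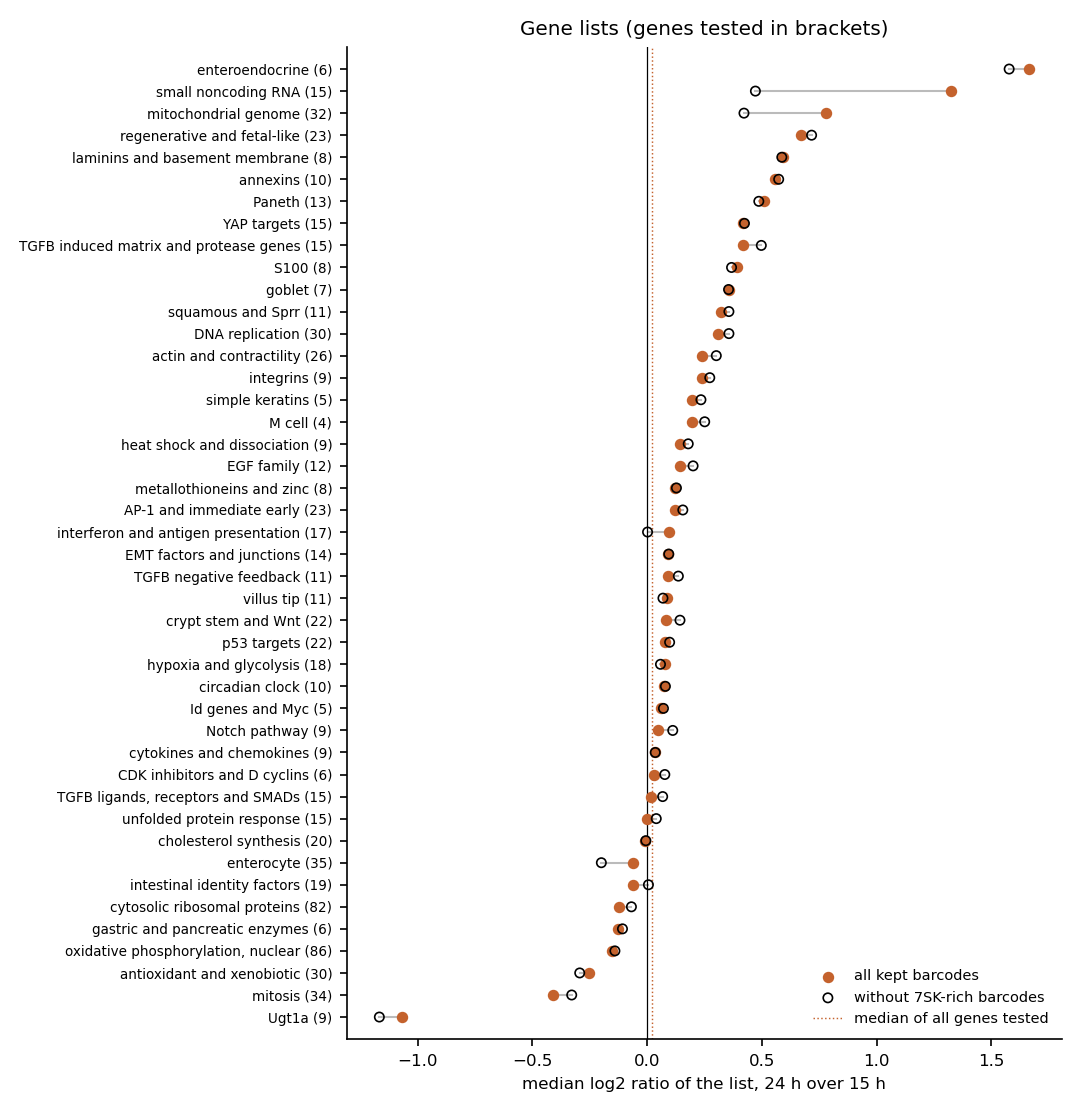
Median log2 ratio of 24 h over 15 h for each gene list with at least 3 genes tested (number in brackets), in all kept barcodes (filled) and without the 7SK-rich barcodes (open). The dotted line is the median of all genes tested, 0.02. The enteroendocrine and regenerative lists lie to the right and the mitosis and Ugt1a lists to the left with either set of barcodes, while the small noncoding RNA list moves from 1.33 to 0.47 and the mitochondrial list from 0.78 to 0.42.

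Genes of the circadian clock were noticed after their values were seen, and members differed in both directions. In the clock, ARNTL and CLOCK activate genes through E-boxes, the NR1D and ROR receptors act on Arntl through response elements with the core AGGTCA, and DBP, TEF and NFIL3 act through D-boxes. Of 10 measured clock genes, 3 were called higher (0.791% of all genes) and 1 lower (0.24%), with or without the 7SK-rich barcodes, and 5 lay above 1 and 5 below. Arntl was at 15.9, 19.95, 29.4 and 11.3 CPM at 0, 6, 15 and 24 h, so 2.61-fold lower at 24 h than at 15 h (2.30 to 2.97). Its repressor genes Nr1d1 and Nr1d2 were at 34.5, 16.8, 17.6 and 48.4 CPM and at 44.1, 30.2, 18.4 and 45.6 CPM. Tef was at 28.7, 30.2, 7.49 and 29.6 CPM, a ratio of 3.95 between the last times, and Dbp at 15.9, 9.56, 2.02 and 12.5 CPM. Tef passed the minimum of 10 CPM only through its 24 h level. A gene that does so has to be higher there, so the call of Tef describes only that gene. Per3 and Ciart were at 2.26 and 5.45 CPM and at 1.54 and 3.80 CPM at 15 and 24 h, both under the minimum, while Clock itself was at 59.1 and 58.8 CPM. For Nr1d2, Tef and Dbp the 15 h library was the lowest of the 4, and for Arntl it was the highest. The labels do not give the hour of the day at which each library was collected, and the TGFB1 time and the hour of collection cannot be told apart.

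Upstream sequences of these genes are shown because several of them differed together. RefSeq windows of 250 bases before a gene's start, build GRCm38.p6, were found for 14 of the 17 listed clock genes, in 19 windows. Motifs were searched on both strands as CACGTG (E-box), TTATGTAA (D-box) and AGGTCA (receptor core), which do not overlap in the windows shown, and are in capitals. Of all 32851 windows of this length, 6.02% held the E-box, 0.819% the D-box and 14.02% the receptor core. The E-box was in windows of 4 of the 14 genes (Per1, Cry1, Tef and Ciart), the D-box in 1 (Per3) and the receptor core in 4 (Clock, Per1, Nr1d2 and Nfil3). Per window, as the shares over all windows are counted, these were 5, 1 and 4 of 19, and the receptor core at 21.1% was near its share over all windows. The windows printed below are of genes with higher levels at 24 h. Cry1, whose window also held an E-box, was at least 1.5-fold lower at 24 h. The window of Ciart lies at chr3:95882229-95882478 on the minus strand. Of the 2 windows of Tef, the one printed lies at chr15:81802423-81802672 on the plus strand. The window of Per3 lies at chr4:151044666-151044915 and that of Nr1d2 at chr14:18239107-18239356, both on the minus strand. Each is printed 5′ to 3′ toward the gene.
Ciart: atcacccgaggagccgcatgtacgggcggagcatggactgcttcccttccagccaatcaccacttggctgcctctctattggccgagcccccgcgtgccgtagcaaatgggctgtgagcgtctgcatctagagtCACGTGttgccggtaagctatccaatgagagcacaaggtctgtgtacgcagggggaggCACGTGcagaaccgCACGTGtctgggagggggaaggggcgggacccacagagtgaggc
Tef: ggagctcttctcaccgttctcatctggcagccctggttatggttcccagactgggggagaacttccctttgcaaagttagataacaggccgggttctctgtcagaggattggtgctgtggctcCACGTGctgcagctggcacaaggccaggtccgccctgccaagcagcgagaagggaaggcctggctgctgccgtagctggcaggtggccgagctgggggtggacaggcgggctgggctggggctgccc
Per3: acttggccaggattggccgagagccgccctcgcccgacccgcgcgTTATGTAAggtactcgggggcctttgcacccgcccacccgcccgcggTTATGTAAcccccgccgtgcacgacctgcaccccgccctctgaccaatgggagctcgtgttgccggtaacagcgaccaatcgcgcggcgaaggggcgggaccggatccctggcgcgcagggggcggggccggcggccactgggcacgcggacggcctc
Nr1d2: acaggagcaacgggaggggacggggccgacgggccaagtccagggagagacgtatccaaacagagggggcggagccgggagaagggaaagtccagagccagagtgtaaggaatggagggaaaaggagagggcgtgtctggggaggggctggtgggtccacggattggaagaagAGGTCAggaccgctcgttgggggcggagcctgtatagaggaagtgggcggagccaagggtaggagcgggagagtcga
Ciart has 3 E-boxes, with first letters 116, 58 and 44 bases before the start, and the printed window of Tef has 1 at 127 bases. The other Tef window, at chr15:81811164-81811413 on the plus strand, has 1 E-box at 138 bases. Per3 has 2 D-boxes at 205 and 158 bases, and Nr1d2 has 1 receptor core at 77 bases. The windows of Arntl, Nr1d1 and Dbp held none of these letters.

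Within clusters, Clu, Thbs1 and Nr1d1 lay above 1 in all 8 compared and Cps1, Olfm4 and Arntl below 1 in all 8. The 12323 barcodes of the 4 libraries gave 13 clusters, of which 8 held at least 50 barcodes at both times. Clusters were made from these same cells and their numbers are not compared, and at 24 h the same cluster was deeper (in cluster 0 a median of 13733 against 7595 UMIs). Cluster 3, led by Cym, Fstl1, Gkn3, Lgr5 and Olfm4, had Clu at 549 CPM at 15 h and 1322 CPM at 24 h, and Anxa1 at 9.03 and 37.2 CPM. Cluster 8, which Anxa1, Anxa8 and Ly6d lead, had Clu at 2040 and 2385 CPM. The interval of the Clu ratio lay above 1 in 7 of 8 clusters and that of Thbs1 in 8 of 8. Cps1 lay below 1 by its interval in 8 of 8. The regenerative list as a sum did not follow Clu: its ratio was 1.497 in cluster 3 and 1.27 in cluster 1, between 1.01 and 1.12 in clusters 0, 7 and 9, and 0.939, 0.981 and 0.925 in clusters 4, 6 and 8. The summed mitosis list lay below 1 in 5 of 8 clusters and above 1 in clusters 3, 7 and 8, and the replication list above 1 in 6 of 8. The summed antioxidant and xenobiotic list lay below 1 in 4 of 8 clusters and above 1 in 4. Its ratios were 1.01, 1.07, 1.26 and 1.01 in clusters 0, 4, 6 and 7.

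Nr1d1 lay above 1 by its interval in 7 of 8 clusters, at 20.9 and 70.1 CPM in cluster 4, led by Ctrb1 and Cst6. Arntl lay below 1 by its interval in 4. Cyp2b10 was at 389 and 276 CPM in cluster 0 and at 114 and 55.0 CPM in cluster 4. In cluster 1, led by Cdc20 and Ccnb1, Mki67 was at 356 and 326 CPM and Top2a, the topoisomerase of dividing cells, at 502 and 514 CPM.

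The nearest replicated measurement was bulk RNA sequencing of irradiated organoids given 2 ng/mL TGFB1 or vehicle on day 6 and collected on day 7, with 3 samples each. It compares TGFB1 with vehicle, not 24 h with 15 h, and dose and day differ from the single-cell libraries. The labels do not say whether the 3 samples came from separate cultures, so p-values measure the spread between these samples. With limma on log2(FPKM + 1) and a Benjamini-Hochberg adjusted p under 0.05, 4031 of 11258 genes were higher with TGFB1 (35.8%) and 4464 were lower (39.7%). Of the 15 genes with the largest 24 h to 15 h ratios, 13 were measured in bulk, and 11 of these were higher and none lower. Of the 15 with the smallest ratios, 13 were measured, and 10 were lower and 2 higher.

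Clu was at 186, 179 and 208 FPKM with vehicle and 3839, 3912 and 4154 FPKM with TGFB1 (log2 change 4.37, SE 0.056, limma adjusted p = 1.07e-11). Cym was at 0.0667, 0.475 and 0.340 FPKM with vehicle and 251, 256 and 162 FPKM with TGFB1 (log2 change 7.42, SE 0.23, limma adjusted p = 2.71e-06). The groups did not overlap for either gene. Reg4 was at 208, 205 and 211 FPKM with vehicle and 347, 343 and 360 FPKM with TGFB1, and Cck was at 240, 246 and 276 FPKM and 674, 659 and 693 FPKM, with limma adjusted p of 1.44e-08 and 2.98e-09. Cyp2b10 was at 104, 105 and 110 FPKM with vehicle and 42.1, 37.0 and 37.3 FPKM with TGFB1 (log2 change -1.44, limma adjusted p = 2.70e-09).

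Ada had a lower level at 24 h than at 15 h in single cells yet was higher with TGFB1 than with vehicle in bulk. Ada was at 46.0, 46.2 and 50.0 FPKM with vehicle and 301, 318 and 321 FPKM with TGFB1 (log2 change 2.6995, SE 0.044, limma adjusted p = 1.75e-11). In single cells Ada also lay above its 0 h level at 24 h. Replication genes differed in the same manner: all 35 measured in bulk were lower with TGFB1, as were all 34 mitosis genes, while in single cells the replication list was higher at 24 h than at 15 h and lower at both than at 0 h. Of 32 regenerative genes measured in bulk, 31 were higher and none lower, and of 26 enteroendocrine genes 21 were higher and 1 lower. Of 16 clock genes measured in bulk, 1 was higher and 8 were lower, against 39.7% of all genes lower. Tef was at 21.3, 22.1 and 21.9 FPKM with vehicle and 16.2, 15.6 and 15.6 FPKM with TGFB1 (log2 change -0.44, limma adjusted p = 4.72e-06), and Nr1d1 had a log2 change of 0.10 that did not pass (limma adjusted p = 0.0659).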

How the data were processed

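Single-cell RNA of 4 irradiated organoid libraries was analysed. The authors deposited gene-by-barcode matrices of expected counts (UMIs, partly fractional): 8.53% of UMIs at 15 h and 11.7% at 24 h stood in fractional entries. The submitters' processing notes name STARsolo, STAR 2.7.10a, Salmon 1.4, TopHat2 2.1.0, Cuffnorm 2.2.1 and the builds mm9, GRCm39 and mm39 without assigning roles, and the labels do not say how barcodes were filtered. The kit was PIPseq T2 v2.1, per the labels' protocols. UMIs were summed per gene symbol over kept barcodes and divided by the library total. Symbols with -ps or Gm plus digits were left aside (1.71% of UMIs at 15 h and 1.98% at 24 h). Genes needed a mean of at least 10 CPM. Intervals of ratios were exact conditional binomial intervals on the summed UMIs, fractions included, which treat molecules as independent.

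The members and the 45 gene lists were chosen with earlier results of these data known. The lists of clock genes, annexins, Ugt1a genes and small noncoding RNAs, and the alternatives without 7SK-rich barcodes (at least 0.5% or 0.1% of UMIs), were added after the data were seen. Named genes were the 15 largest and 15 smallest ratios among genes of at least 20 CPM on average and at most 20% fractional UMIs, outside mitochondrial genes, up to 4 per list, and a fixed set of markers. Others named, such as the clock genes, were chosen after their values were seen. Flna and Cdca3 were the first outside the 15 on each side, at 66.8 against 31.6 CPM and 35.7 against 62.6 CPM at 24 h and 15 h.

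Barcodes were clustered together with scanpy 1.11.5 (2000 variable genes, 30 components, 15 neighbours, Leiden resolution 0.6). Thinned shares of barcodes used counts rounded to whole UMIs and thinned to 2000 per barcode. No kept barcode at 15 h or 24 h held fewer (minima 2389 and 2612). Unthinned shares counted any nonzero entry, fractions included. Scrublet marked 36 barcodes at 15 h and 9 at 24 h, these were kept, and their removal was an alternative. Bulk values were deposited by the authors as FPKM, and the submitters' processing notes name Cuffnorm without tying it to them. They were tested with limma 3.58.1 (trend, robust, pseudocount 1 FPKM, mean of at least 1 FPKM). Scripts were tested on simulated data. Some genes are not reported here by name.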

Additional observations from a re-analysis of the deposited data

How the results depend on the processing

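The 66 genes higher at 24 h became 102 with each barcode thinned to 2000 UMIs, 42 without barcodes of at least 0.1% 7SK, 21 with a mean of at least 50 CPM, 655 with no minimum, 184 at 1.5-fold and 22 at 3-fold. The 20 lower genes became 52 when only whole-number entries were counted, of which 10 were among the 20, 2 at 50 CPM, 131 with no minimum, 71 at 1.5-fold and 3 at 3-fold. Other scalings and cell filters left both counts within 1.5 times. Of the 45 lists, without the added ones, those with a median log2 ratio at least 0.25 below 0 numbered 2, and 1 with median-of-ratios scaling, without a cell filter, with at least 2000 UMIs and at most 10% mitochondrial UMIs, or after thinning. Of the named genes, Rpph1 at -0.17 and the 5S RNA n-R5s106 at -0.17 reversed without barcodes of at least 0.1% 7SK. Of the 30 genes with the largest and smallest ratios, 20 moved beyond their counting interval after thinning and 11 without barcodes of at least 0.5% 7SK, none with a change of direction. The cause was not tested.

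In bulk, leaving out each sample in turn gave 3836 to 3908 genes higher and 4192 to 4387 lower. Samples with the same number did not deviate together in every pair (correlations 0.0745, 0.213 and 0.0237), and the replicate block gave 3985 higher and 4432 lower. Every alternative listed was run. With 1 library per time, depth limits only the counting error, and the spread between libraries of one time is unknown.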

Other observations

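Genes of the cytoskeleton lay slightly higher at 24 h as a group. All 26 measured actin and contractility genes had a ratio above 1, where 56% of all genes did. Their median log2 ratio was 0.24, which ranged from 0.21 to 0.30 over the alternatives, and 2 were called higher (0.791% of all genes). These were Flna and the tubulin Tuba1a, the latter at 2.98, 8.44, 24.98 and 51.96 CPM at 0, 6, 15 and 24 h. The keratin Krt7, of simple epithelia, was at 93.5, 194, 366 and 561 CPM, and Krt18 at 955 and 1293 CPM at 15 and 24 h. Of 11 measured squamous genes 10 lay above 1 (56% of all genes did). Krt23, Ly6d, Serpinb5 and Sprr1a passed the 1.5-fold limit, as 2.21% of all genes did. Within clusters the summed actin and contractility list lay above 1 in 5 of 8, and the summed squamous list in 3 of 8.

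Ribosomal protein genes and nuclear genes of oxidative phosphorylation lay slightly below 1: 73 of 82 and 79 of 86, where 44% of all genes did. Their median log2 ratios were -0.12 and -0.15. Without the 7SK-rich barcodes 66 and 78 lay below, where 40.1% of all genes did, at medians of -0.07 and -0.14. Of the 20 measured genes of cholesterol synthesis 10 lay above 1 and 10 below.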
